A study of Mus musculus with 27 samples.

Results

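Claudins are the membrane proteins that form the strands of the tight junction, the seal between neighbouring epithelial cells. Some claudins line pores in that seal and let cations or water pass between the cells, while others close it, and the mix that a cell makes sets how leaky its epithelium is. In the intestine Cldn2 and Cldn15 form cation pores, and Cldn12 has been linked to the passage of calcium. Cldn1, Cldn3, Cldn4, Cldn8 and Cldn23 are mostly described as barrier-forming, and Cldn7, a main claudin of the gut, lies largely along the lateral and basal membrane.

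The 9 claudins described here are Cldn1, Cldn2, Cldn3, Cldn4, Cldn7, Cldn8, Cldn12, Cldn15 and Cldn23, taken by symbol from 23419 measured genes outside Rn45s, the entry for the ribosomal RNA precursor. RNA was measured in C57BL/6 mice, an inbred strain, by QuantSeq, which reads a tag near the 3′ end of each transcript, so that counts of different genes need no correction for length. Colon organoids had 2 EtOH and 2 control libraries, jejunum organoids 4 and 4, colon tissue 4 and 4, and jejunum tissue 4 and 3, which makes 27. EtOH mice received 15% ethanol for 8 weeks and control mice received water. Organoids, cultures grown from intestinal stem cells, were made from colon and jejunum of such mice, and no label states that ethanol was added to a culture. The study set out to measure intestinal permeability after alcohol feeding, for which the claudins are structural components. Each library of a group has its own donor number in the labels, and no label gives an age, a sex, a batch or a date.

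Levels are counts per 1000000 counts outside Rn45s (CPM), of which each library had 684906 to 7606668. Control jejunum tissue was shallowest among tissue groups (684906 to 1510057) and control colon organoids among organoids (818240 to 2036195). The colon organoid libraries also stood apart in their spread: replicates correlated with a Spearman rho of 0.881 in EtOH and 0.745 in control colon organoids across genes, against 0.902 to 0.981 in the other 6 groups. Marker lists of cell types matched the labels in part. The summed level of 14 jejunum enterocyte markers was 3391 to 9848 CPM in jejunum organoids and 23477 to 40708 CPM in jejunum tissue, against 74.6 to 1424 CPM in all colon libraries. The 11 measured colon epithelial markers summed to 4207 to 35239 CPM in colon tissue and 8600 to 12783 CPM in EtOH colon organoids, but to 1060 to 2642 CPM in control colon organoids. On the same list jejunum organoids summed to 839 to 1242 CPM, which overlaps control colon organoids. Slc37a2, Hoxd13 and Hoxd10 had no count in control colon organoids, and Hoxb13 and Hoxd10 none in EtOH colon organoids. Control colon organoids also carried 439 to 1143 CPM of 9 mesothelial and neural markers, and EtOH colon organoids 385 to 444 CPM, against 1.52 to 8.15 CPM in jejunum organoids. Only part of that list made up the sum, as Upk3b, Wt1, Sox10 and Elavl4 had no count in control and Upk3b none in EtOH colon organoids. In tissue, fewer epithelial cells and less claudin RNA per cell cannot be told apart.

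The genes lie on several chromosomes of the GRCm38 (mm10) assembly in the GENCODE vM21 annotation. Cldn15, Cldn3, Cldn4 and Cldn12 are all on chromosome 5, with Cldn4 (134945119 to 134946934, minus strand) and Cldn3 (134986214 to 134987472, plus strand) as near neighbours and Cldn15 at 136966616 to 136975858 (plus strand). Cldn12 lies at 5489537 to 5514958 (minus strand). Cldn1 (26356642 to 26371841) and Cldn8 (88560828 to 88563183) are on the minus strand of chromosome 16, and Cldn23 (35824712 to 35826559) on the minus strand of chromosome 8. Cldn7 (69964779 to 69967885) is on the plus strand of chromosome 11 and Cldn2 (139800828 to 139811386) on that of chromosome X. Cldn3, Cldn4 and Cldn8 have a single exon. Cldn3 overlaps the antisense gene Wbscr25, and no source used here says whether reads were counted by strand. Wbscr25 itself had at most 20 counts in a library, up to 5.75% of the Cldn3 count.

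The 250 bases before the transcript start are shown for the 5 claudins on which the comparisons turn most, since these genes moved in different directions between segments and preparations. RefSeq (GRCm38.p6) gave such sequences for 7 of the 9 claudins, at 10 starts, but not for Cldn8 and Cldn23. Capitals mark motif letters on either strand. For the TATA box the letters searched were TATAAA. The E-box was searched as CAGGTG. For the core of a site of the CDX factors, which act in the intestine, they were TTTATG. Part of a site of the HNF1 factors was searched as GTTAAT. A site of the GATA factors was searched as AGATAA. The GC box was searched as GGGCGG. The sequences are Cldn2 at chrX:139800558-139800807 (plus strand), Cldn15 at chr5:136967619-136967868 (plus strand), Cldn3 at chr5:134985964-134986213 (plus strand), Cldn4 at chr5:134946935-134947184 (minus strand) and Cldn7 at chr11:69965171-69965420 (plus strand, the downstream of 2 starts).
Cldn2: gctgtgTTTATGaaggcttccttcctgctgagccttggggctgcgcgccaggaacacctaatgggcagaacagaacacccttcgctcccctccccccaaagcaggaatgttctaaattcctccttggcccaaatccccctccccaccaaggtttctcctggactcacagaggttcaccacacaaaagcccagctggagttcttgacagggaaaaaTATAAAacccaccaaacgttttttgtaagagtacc
Cldn15: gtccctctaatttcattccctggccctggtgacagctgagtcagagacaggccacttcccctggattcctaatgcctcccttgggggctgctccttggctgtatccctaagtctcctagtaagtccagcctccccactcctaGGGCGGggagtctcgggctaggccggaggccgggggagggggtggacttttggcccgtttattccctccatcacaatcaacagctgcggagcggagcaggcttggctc
Cldn3: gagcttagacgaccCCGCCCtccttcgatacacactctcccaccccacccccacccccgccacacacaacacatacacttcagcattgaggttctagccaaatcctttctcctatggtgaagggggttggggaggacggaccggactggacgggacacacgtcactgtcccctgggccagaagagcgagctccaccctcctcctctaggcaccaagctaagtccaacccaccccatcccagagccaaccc
Cldn4: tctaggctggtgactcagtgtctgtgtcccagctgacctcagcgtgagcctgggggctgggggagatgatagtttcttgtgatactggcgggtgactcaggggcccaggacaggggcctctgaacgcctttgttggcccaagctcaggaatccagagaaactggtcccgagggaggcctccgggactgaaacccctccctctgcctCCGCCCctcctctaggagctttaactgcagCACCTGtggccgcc
Cldn7: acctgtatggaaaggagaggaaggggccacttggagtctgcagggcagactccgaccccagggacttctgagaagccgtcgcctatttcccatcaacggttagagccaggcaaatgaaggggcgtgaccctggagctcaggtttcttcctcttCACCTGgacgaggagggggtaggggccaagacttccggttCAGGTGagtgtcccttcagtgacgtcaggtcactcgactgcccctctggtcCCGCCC
Cldn2 alone among the 10 starts held the TATA box letters, found in 12.4% of 32851 promoters of that length, and the TTTATG letters, found in 10.8%. The CAGGTG letters, in 17.2% of all promoters, occurred at Cldn4 and at the Cldn7 start shown. GGGCGG occurred at 7 of the 10 claudin starts, against 32.7% of all promoters, GTTAAT only at Cldn1 (6.43% of all) and AGATAA at none (9.99% of all). The starts with GGGCGG include neighbouring starts of Cldn12 whose windows overlap and hold the same site, which is thus counted more than once. None of the searched motifs overlaps another in its letters, and a match is a description of the letters only.

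The claudin make-up differed by segment and preparation. In jejunum tissue Cldn15 and Cldn7 made up nearly all claudin counts: Cldn15 took 56.9% of the counts of the 9 genes in EtOH and 55.4% in control libraries (means of 4 and 3), and Cldn7 took 35.4% and 39.1%. Colon tissue was more even. There Cldn7 took 27.1% in EtOH and 31.0% in control libraries, Cldn15 took 23.6% and 22.8%, and Cldn3 took 19.5% and 22.7%. Cldn2 took 17.9% in EtOH and 8.60% in control colon tissue. Jejunum organoids resembled colon tissue in this list, with Cldn7 at 34.0% and 32.3%, Cldn15 at 28.4% and 28.3% and Cldn3 at 21.1% and 20.9% in EtOH and control libraries. In colon organoids Cldn4 and Cldn7 led, at 29.8% and 50.4% in EtOH libraries and at 46.5% and 26.9% in control libraries, while Cldn15 had at most 1.07% in each library.

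**Figure D1:**
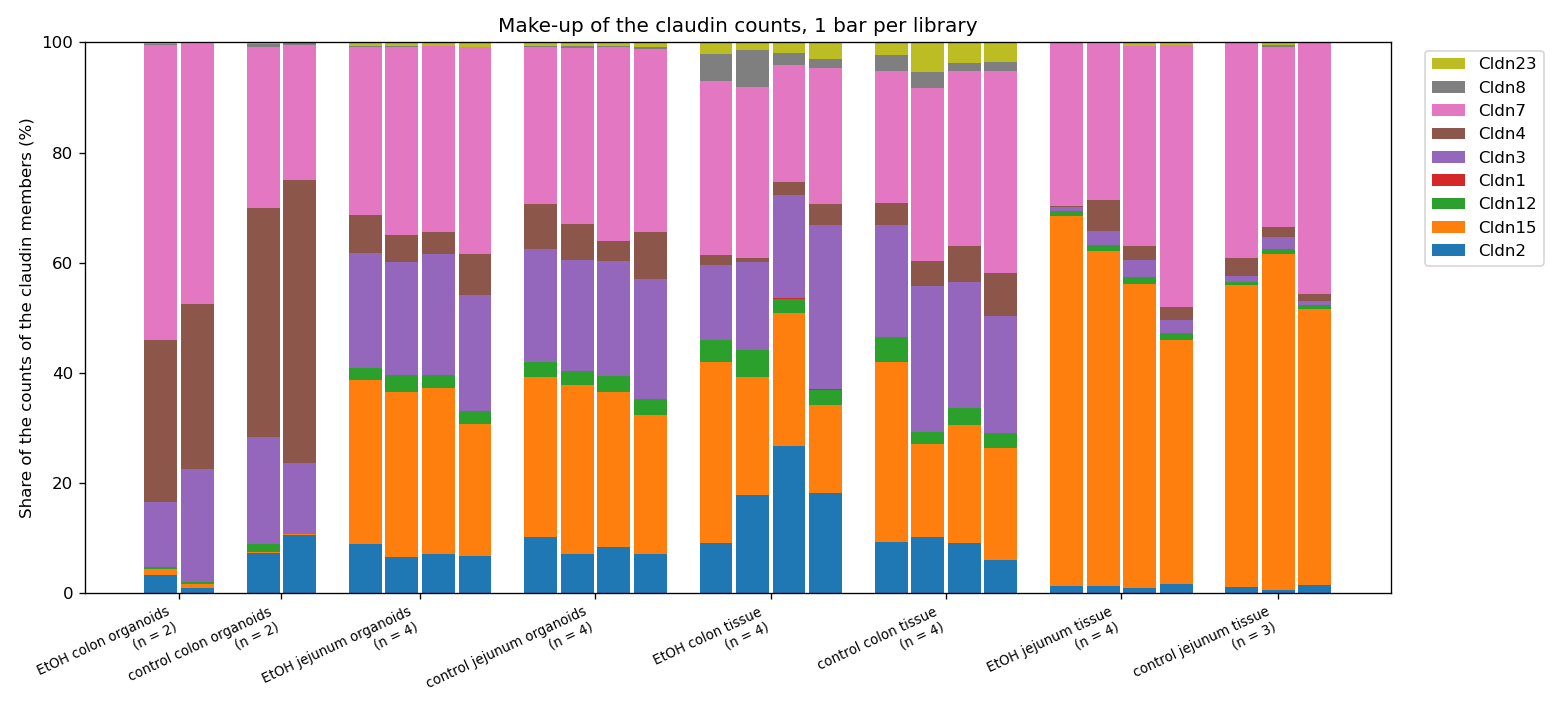
Share of each claudin in the summed counts of the 9 claudins (percent, vertical axis), with 1 stacked bar per library and the libraries set out by group. Cldn15 (orange) fills the largest part of each jejunum tissue bar except that of EtOH library 4 and is nearly absent from colon organoids, where Cldn4 (brown) and Cldn7 (pink) lead.

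The summed level of the 9 claudins was 5867 ± 59.0 CPM in EtOH colon organoids and 2311 ± 343 CPM in control colon organoids (SD, n = 2 each). It was 2400 ± 90.3 CPM in EtOH and 2495 ± 286 CPM in control jejunum organoids (n = 4 each). Colon tissue had 1850 ± 343 CPM in EtOH and 1820 ± 331 CPM in control colon tissue (n = 4 each). Jejunum tissue had 4747 ± 1226 CPM in EtOH (n = 4) and 4935 ± 688 CPM in control libraries (n = 3). EtOH and control libraries lay apart in colon organoids and overlapped in the other 3 settings, a description that was given no test.

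**Figure D2:**
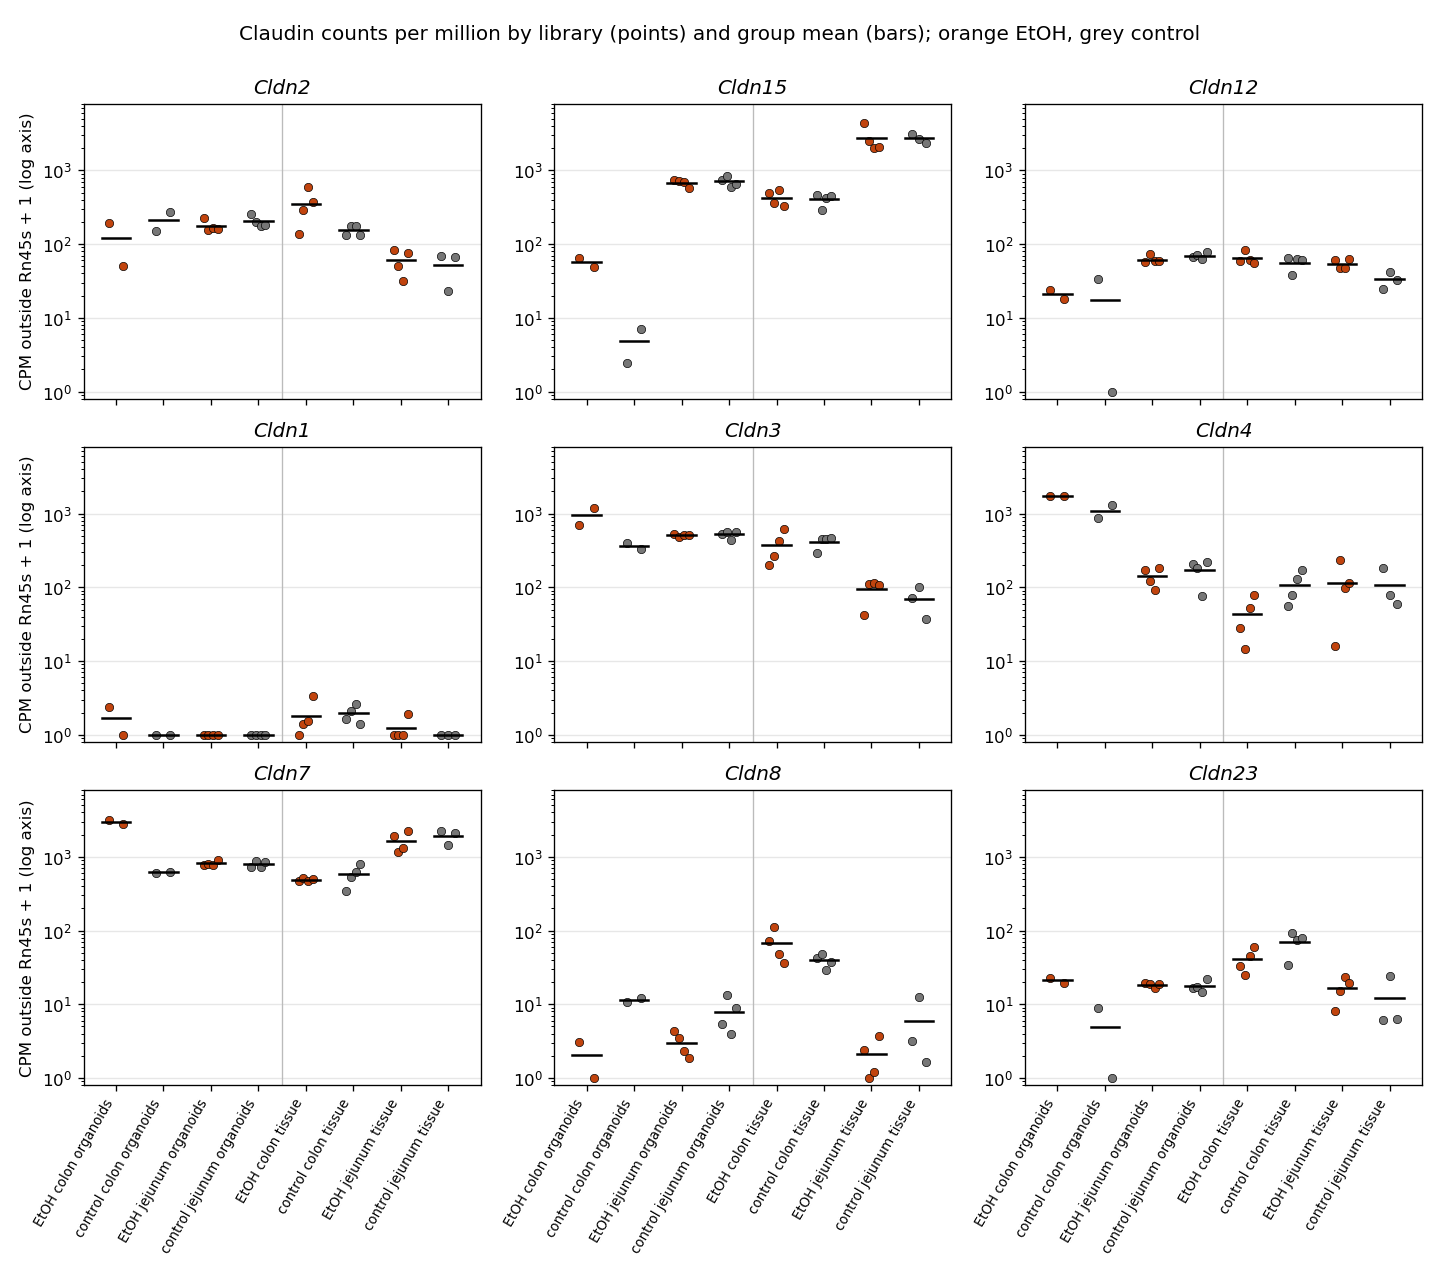
CPM outside Rn45s plus 1 (log axis) of each claudin by library (points) with the group mean (bars), for EtOH (orange) and control (grey) libraries of colon organoids, jejunum organoids, colon tissue and jejunum tissue, left to right. Cldn15 spans the widest range, from 1.47 CPM in a control colon organoid library to 4354 CPM in an EtOH jejunum tissue library, and Cldn1 stays at or near 0 everywhere.

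The first comparison was EtOH against control within each segment and preparation, fitted over 12 organoid and 15 tissue libraries with edgeR's quasi-likelihood test. P-values were adjusted by Benjamini-Hochberg over all genes tested, and those under 0.05 are called. In colon organoids 3 of the 8 testable claudins were called, all higher: Cldn15, Cldn3 and Cldn7. In jejunum organoids, colon tissue and jejunum tissue no claudin was called. Cldn1 was too low to be tested in any comparison.

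In colon organoids Cldn15, the sodium pore claudin of the small intestine, had 63.3 and 47.6 CPM (180 and 64 counts) in EtOH libraries, against 1.47 and 6.11 CPM (3 and 5 counts) in control libraries. Both EtOH libraries lay above both controls, with a log2 fold change of 4.46 ± 0.44 (SE, n = 2 each, adjusted p by edgeR = 0.0001676). Even in EtOH colon organoids its level stayed below that of all other groups but control colon organoids. Cldn7 had 3170.3 and 2747 CPM in EtOH libraries, against 604 and 627 CPM in control libraries, a log2 fold change of 2.53 ± 0.20 (adjusted p by edgeR = 6.992e-05). Cldn3, a barrier claudin, had 695 and 1194 CPM in EtOH libraries, against 402 and 329 CPM in control libraries, a log2 fold change of 1.60 ± 0.26 (adjusted p by edgeR = 0.002203). These 3 of 8 claudins (37.5%) stood beside 17.1% called among all 13170 genes tested, 12.4% higher and 4.74% lower. The ranges of EtOH and control libraries were apart for 6 of 8 claudins, against 40.7% of all genes.

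The other claudins of colon organoids were not called. Cldn4, a barrier claudin and the most abundant one of control colon organoids, had 1742 and 1752 CPM in EtOH libraries, against 859 and 1313 CPM in control libraries, a log2 difference of 0.96 ± 0.45 (adjusted p by edgeR = 0.1613). Cldn23 had 21.8 and 18.6 CPM in EtOH libraries, against 7.86 and 0 CPM in control libraries, a log2 difference of 2.28 ± 0.73 (adjusted p by edgeR = 0.05049). Cldn8 ran the other way, with 2.11 and 0 CPM against 9.822 and 10.999 CPM (log2 difference -2.73 ± 1.09, adjusted p by edgeR = 0.1069). Cldn2 overlapped, at 189.9 and 49.1 CPM in EtOH and 151 and 269 CPM in control libraries (adjusted p by edgeR = 0.5542). Cldn12 overlapped too, at 22.9 and 17.1 CPM in EtOH and 32.4 and 0 CPM in control libraries (adjusted p by edgeR = 0.8222).

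The calls in colon organoids held in 6 of 8 alternatives. A fit of the 4 colon organoid libraries alone called 0 of 8 claudins and 0 of 10823 genes. Limma-voom with a spread per group called 0 of 8 claudins and 0 of 13170 genes. Over the 8 alternatives the log2 fold change of Cldn15 ran from 3.84 to 4.47 and its adjusted p from 2.03e-12 to 0.629. Cldn3 ran from 0.97 to 1.61 (adjusted p 3.4e-07 to 0.626) and Cldn7 from 1.92 to 2.54 (adjusted p 1.16e-60 to 0.327). With each of the 4 libraries left out in turn the 3 claudins were still called, but other calls came and went. Without control library 1, Cldn12 and Cldn23 were called higher against a control with no count of either. Without control library 2, Cldn23 was called at 1.54. Without EtOH library 1, Cldn2 (-1.85) and Cldn8 (-7.91, with no count left in EtOH) were called lower.

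Marker lists also differed between EtOH and control colon organoids, in a comparison that called 12.4% of all genes higher and 4.74% lower. The colon epithelial list summed to 8600 to 12783 CPM in EtOH and 1060 to 2642 CPM in control libraries, with 3 of 8 tested members called higher. The 14 jejunum enterocyte markers summed to 373 and 410.3 CPM in EtOH and 74.6 and 114 CPM in control libraries, with 4 called higher and 1 lower. Apoa4, Apob, Slc2a2 and Rbp2 of that list were at 0 in control libraries. The 9 immune markers summed to 347 to 876 CPM in EtOH and 137 to 160 CPM in control libraries, with Cd3e and Cd79a at 0 in both. Their part in the claudin result was not tested. The sum of 12 epithelial markers was 9979 to 11094 CPM in EtOH and 7083 to 9816 CPM in control libraries. Relative to that sum Cldn15, Cldn3 and Cldn7 remained called higher and Cldn8 was called lower.

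In jejunum organoids EtOH and control libraries overlapped for all 8 tested claudins, where 3.33% of all genes had groups apart. Cldn15 had 577 to 750.4 CPM in EtOH and 587 to 851 CPM in control libraries, with a log2 difference of -0.06 ± 0.20 (adjusted p by edgeR = 1, n = 4 each). Cldn7 had 769.9 to 903 CPM in EtOH and 725 to 885 CPM in control libraries (log2 difference 0.01 ± 0.13). Cldn3 had 485 to 527 CPM in EtOH and 439 to 562 CPM in control libraries (-0.05 ± 0.18). The claudin with the largest difference was Cldn8, at 0.873 to 3.34 CPM in EtOH and 2.98 to 12.2 CPM in control libraries (log2 difference -1.73 ± 0.68, adjusted p by edgeR = 1). Over all genes 0% were called in this comparison with edgeR, 150 had an unadjusted p under 0.05, DESeq2 called 1 gene and limma-voom with a spread per group called 0. The 3 claudins called in colon organoids also had a larger EtOH effect there than in jejunum organoids by the test of the difference. The log2 difference of effects was 4.52 ± 0.49 for Cldn15, 1.66 ± 0.31 for Cldn3 and 2.51 ± 0.23 for Cldn7 (adjusted p by edgeR = 0.0006352, 0.007698 and 0.0003577). That test called 9.64% of all genes, 7.56% higher and 2.08% lower. Limma-voom with a spread per group called 0 of these differences, and relative to the epithelial markers that of Cldn3 was not called.

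In colon tissue Cldn2, the cation pore claudin of crypts and of leaky epithelia, had 136, 293, 597 and 369 CPM in EtOH libraries, against 131, 173, 178 and 131 CPM in control libraries. The lowest EtOH library lay inside the control range and the other 3 above it, and the log2 difference of 1.16 ± 0.43 was not called (adjusted p by edgeR = 1, n = 4 each). Cldn4 had 27.3, 13.5, 51.6 and 77.9 CPM in EtOH libraries, against 54.8, 78.6, 129.7 and 169.7 CPM in control libraries (log2 difference -1.34 ± 0.74). Cldn23 had 24.0 to 59.8 CPM in EtOH and 32.9 to 93.0 CPM in control libraries (-0.84 ± 0.43). Cldn8, a barrier claudin of the colon, had 35.3 to 111 CPM in EtOH and 28.5 to 47.5 CPM in control libraries (0.72 ± 0.50). The log2 differences of Cldn15 (0.05 ± 0.27), Cldn12 (0.18 ± 0.20), Cldn3 (-0.17 ± 0.38) and Cldn7 (-0.29 ± 0.30) were near or within their standard errors. Cldn1 had 0 to 2.34 CPM in EtOH and 0.406 to 1.65 CPM in control libraries. All 8 claudins overlapped between EtOH and control colon tissue, where 3.29% of all genes had groups apart. Of all genes 0.00746% were called by edgeR, 336 genes had an unadjusted p under 0.05, DESeq2 called 2 genes and limma-voom with a spread per group 0.

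In jejunum tissue Cldn12 was the claudin whose groups lay apart. It had 59.5, 46.5, 45.8 and 62.3 CPM in EtOH libraries, against 24.0, 40.9 and 31.8 CPM in control libraries, with a log2 difference of 0.82 ± 0.24 that was not called (adjusted p by edgeR = 0.2384, n = 4 and 3). Groups were apart for 1 of 8 claudins and for 7.47% of all genes. Cldn15 had 4354, 2526, 2035 and 2076 CPM in EtOH libraries, against 3135, 2707 and 2335 CPM in control libraries, a log2 difference of 0.05 ± 0.29. Cldn7 had 1171 to 2224 CPM in EtOH and 1453 to 2232 CPM in control libraries (-0.19 ± 0.32). Cldn4 varied most among the abundant claudins, at 14.8 to 235 CPM in EtOH and 57.6 to 184 CPM in control libraries. Here 0% of all genes were called by edgeR, 1462 had an unadjusted p under 0.05, DESeq2 called 31 genes and limma-voom with a spread per group 0. No difference of the EtOH effect between colon and jejunum tissue was called for a claudin, in an edgeR test that called 0% of all genes (856 at an unadjusted p under 0.05, and 2 by DESeq2).

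**Figure D3:**
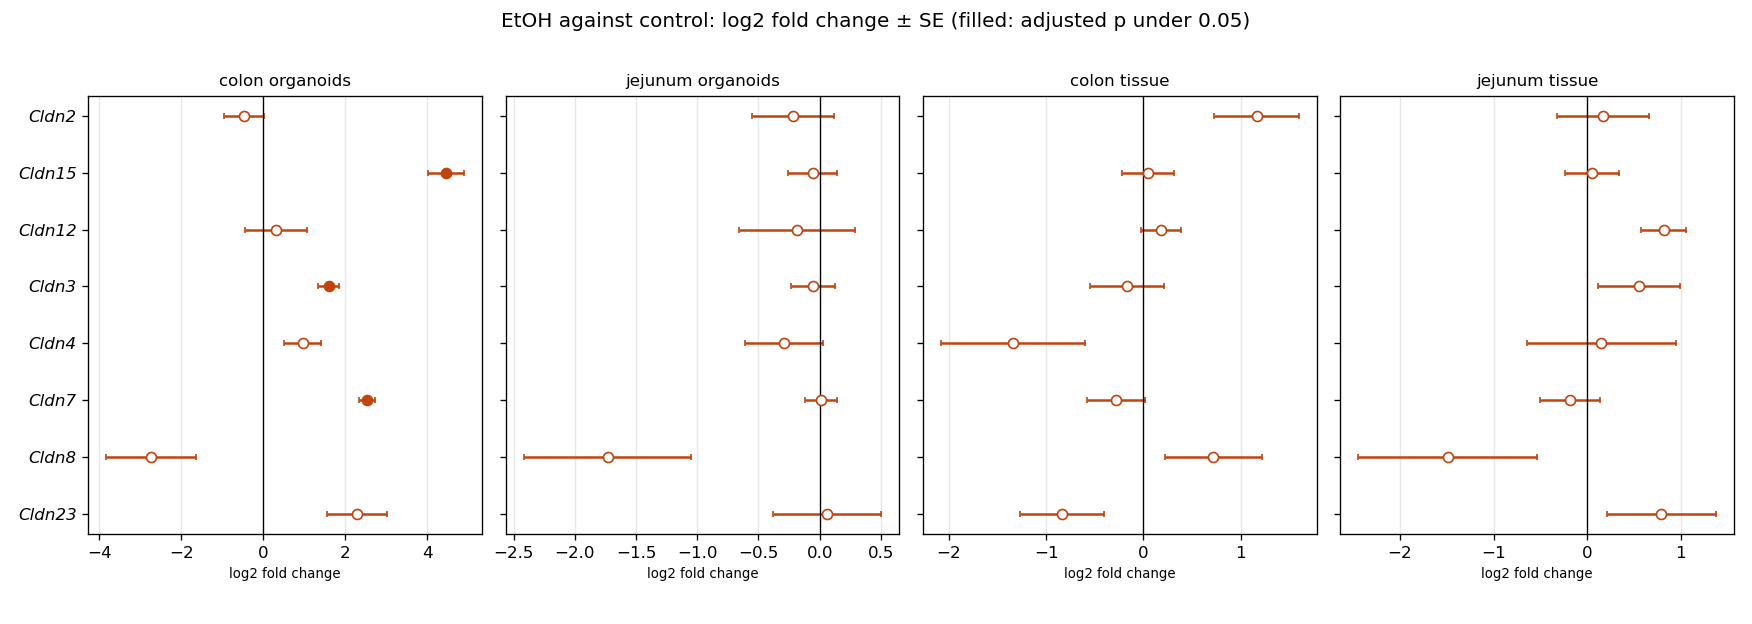
Log2 fold change of EtOH over control (horizontal axis, points, with the SE as bars) for the 8 tested claudins in colon organoids, jejunum organoids, colon tissue and jejunum tissue, each on its own horizontal scale, filled where the adjusted p by edgeR was under 0.05. The filled points are Cldn15 (4.46), Cldn3 (1.60) and Cldn7 (2.53) in colon organoids, and no other panel has one.

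The second comparison was colon against jejunum. In tissue the pore claudin Cldn15 and Cldn7 were lower in colon, and the barrier claudins Cldn3 and Cldn8 were higher, in EtOH and in control mice alike. Cldn15 had 326 to 536 CPM in EtOH colon tissue, against 2035 to 4354 CPM in EtOH jejunum tissue, a log2 fold change of -3.27 ± 0.29 (adjusted p by edgeR = 6.818e-08). In control mice it had 289 to 465 CPM in colon tissue, against 2335 to 3135 CPM in jejunum tissue, also -3.27 ± 0.30 (adjusted p by edgeR = 1.315e-07). Colon and jejunum libraries did not overlap in either set of mice. Rn45s took 18.3% to 43.0% of all counts in EtOH and 18.3% to 24.6% in control colon tissue, against 53.4% to 80.8% in EtOH and 76.3% to 84.3% in control jejunum tissue. With Rn45s kept in the counts the claudins called were still 3 higher and 3 lower in EtOH and 3 higher and 2 lower in control tissue. That refit changes only the counts entered. The part of a high Rn45s share in the segment and preparation values of tissue was not tested.

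Cldn7 fell by 2.35 ± 0.31 on the log2 scale in EtOH colon tissue and by 2.25 ± 0.32 in control colon tissue relative to jejunum tissue (adjusted p by edgeR = 8.183e-06 and 2.74e-05). Cldn3 had 201, 262, 419 and 608 CPM in EtOH colon tissue, against 41.4, 109, 113 and 108 CPM in EtOH jejunum tissue, a log2 fold change of 1.43 ± 0.39 (adjusted p by edgeR = 0.006335). The same contrast gave 2.16 ± 0.46 in control mice (adjusted p by edgeR = 0.001372). Cldn8 had 71.2, 111, 47.7 and 35.3 CPM in EtOH colon tissue, against 1.43, 0, 0.216 and 2.76 CPM in EtOH jejunum tissue. This is a log2 fold change of 5.08 ± 0.66 (adjusted p by edgeR = 1.295e-05). In control mice, with 28.5 to 47.5 CPM in colon and 0.662 to 11.7 CPM in jejunum tissue, it was 2.87 ± 0.77 (adjusted p by edgeR = 0.00743).

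Cldn23 was called in control mice, with 32.9, 93.0, 74.3 and 77.9 CPM in colon tissue, against 5.08, 23.4 and 5.30 CPM in jejunum tissue (log2 fold change 2.38 ± 0.58, adjusted p by edgeR = 0.003648). In EtOH mice its colon libraries (24.0 to 59.8 CPM) also lay above the jejunum ones (7.14 to 22.5 CPM) without a call (adjusted p by edgeR = 0.1723). Cldn2 was called in EtOH mice, where colon tissue had 136 to 597 CPM, against 30.5 to 83.3 CPM in jejunum tissue (1.99 ± 0.45, adjusted p by edgeR = 0.00177). In control mice its colon libraries (131 to 178 CPM) again lay above the jejunum ones (21.9 to 67.5 CPM) without a call (adjusted p by edgeR = 0.1133). Cldn12 was not called in either set.

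Counted together, 6 of 8 claudins were called between EtOH colon and jejunum tissue, against 48.4% of all genes. Of these 3 were higher and 3 lower, where 24.8% of all genes were higher and 23.6% lower. Between the control tissues 5 of 8 were called, against 42.2% of all genes, 3 higher and 2 lower, where 23% of all genes were higher and 19.2% lower. Groups were apart for 6 of 8 claudins in either set, against 51.8% of all genes in EtOH and 54.7% in control tissue. The calls of Cldn15, Cldn3, Cldn7 and Cldn8 in both sets, of Cldn23 in control and of Cldn2 in EtOH mice held in all 8 alternatives and without any 1 library. The sixth EtOH call, Cldn4 (log2 fold change -1.99 ± 0.75, adjusted p by edgeR = 0.04362), held in 3 of 8 alternatives, where its adjusted p reached 0.21, and its groups overlapped. It was lost without EtOH colon tissue library 1, 2 or 3 (-1.80, -1.69 and -2.09) and without EtOH jejunum tissue library 2, 3 or 4 (-1.40, -2.06 and -1.99). Scaling moved the tissue values as a whole, because the TMM factors of colon tissue were above those of jejunum tissue. With library size alone the median of all genes shifted by 0.596 in EtOH and 0.516 in control mice and, relative to the epithelial markers, by 0.806 and 0.673. Under both scalings the calls became 4 higher and 2 lower in EtOH and 5 higher and 2 lower in control mice. Smooth muscle markers summed to 3562 to 20893 CPM in EtOH and 3615 to 15444 CPM in control colon tissue, against 253 to 1615 CPM in EtOH and 565 to 2116 CPM in control jejunum tissue, and their part in the claudin values was not tested.

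In organoids the segments differed in another way, with Cldn4 higher and Cldn15 lower in colon. Cldn4 had 1742 and 1752 CPM in EtOH colon organoids, against 91.3 to 180.4 CPM in EtOH jejunum organoids, a log2 fold change of 3.60 ± 0.38 (adjusted p by edgeR = 2.513e-05). In controls it had 859 and 1313 CPM in colon organoids, against 76.2 to 217 CPM in jejunum organoids (2.35 ± 0.37, adjusted p by edgeR = 0.0003622). Cldn15 had 63.3 and 47.6 CPM in EtOH colon organoids, against 577 to 750.4 CPM in EtOH jejunum organoids (log2 fold change -3.63 ± 0.30, adjusted p by edgeR = 5.641e-06). In controls 1.47 and 6.11 CPM in colon stood against 587 to 851 CPM in jejunum organoids (-8.14 ± 0.43, adjusted p by edgeR = 2.586e-07). The groups did not overlap for either gene. The Cldn15 calls and the Cldn4 call in EtOH organoids held in all 8 alternatives and without any 1 library, and the Cldn4 call in controls held in 7.

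Cldn7 and Cldn3 were called in opposite directions in the 2 treatments. Cldn7 was higher in EtOH colon organoids than in EtOH jejunum organoids (2747 and 3170.3 CPM against 769.9 to 903 CPM, log2 fold change 1.84 ± 0.15, adjusted p by edgeR = 5.572e-06). It was lower in control colon than in control jejunum organoids (604 and 627 CPM against 725 to 885 CPM, -0.67 ± 0.17, adjusted p by edgeR = 0.006043). Cldn3 was likewise higher in EtOH colon organoids (log2 fold change 0.87 ± 0.21, adjusted p by edgeR = 0.006354) and lower in control colon organoids (-0.79 ± 0.23, adjusted p by edgeR = 0.01324). The control calls of both genes held in 5 of 8 alternatives and the EtOH call of Cldn7 in all 8. Relative to the epithelial markers Cldn3 was at -0.01 in EtOH organoids and not called. It was also not called without EtOH colon organoid library 2 (0.46, adjusted p by edgeR = 0.148) or, in controls, without control colon organoid library 2 (-0.62, adjusted p by edgeR = 0.0522).

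Cldn12 (log2 fold change -2.11 ± 0.68, adjusted p by edgeR = 0.02314) and Cldn23 (-2.02 ± 0.67, adjusted p by edgeR = 0.02525) were called lower in control colon organoids. Control colon organoid library 2 had no count of either. Without it the values were smaller, at -1.33 and -1.32, and both were still called (adjusted p by edgeR = 0.00106 and 0.0147). Without library 1 they were -10.96 and -8.92, which measure no fold since no count is left. Without control jejunum organoid library 4 neither was called (adjusted p by edgeR = 0.0506 and 0.0591). In all, 4 of 8 claudins were called between EtOH organoids, against 45.5% of all genes. Of these 3 were higher and 1 lower, where 26.2% of all genes were higher and 19.2% lower. Between control organoids 6 of 8 were called, against 49.4% of all genes, 1 higher and 5 lower, where 23.8% of all genes were higher and 25.6% lower. Groups were apart for 6 of 8 claudins in either set, against 67.5% of all genes in EtOH and 52.7% in control organoids. Relative to the epithelial markers the EtOH split was 2 higher and 3 lower, with the median of all genes moved by -0.855. With library size alone the control split was 1 higher and 3 lower, with the median moved by 0.229. Limma-voom with a spread per group called 1 claudin in control organoids, beside 7.71% of all genes. The replicate block called 2 claudins there, for which the share of all genes is not given.

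The third comparison was organoids against tissue of the same segment, fitted over all 27 libraries. In the jejunum, culture went with lower Cldn15 and Cldn7 and with higher Cldn2 and Cldn3, in EtOH and control mice alike. Cldn15 had 577 to 750.4 CPM in EtOH jejunum organoids, against 2035 to 4354 CPM in EtOH jejunum tissue, a log2 fold change of -2.28 ± 0.25 (adjusted p by edgeR = 2.299e-08). In controls 587 to 851 CPM in organoids stood against 2335 to 3135 CPM in tissue (-2.18 ± 0.26, adjusted p by edgeR = 1.033e-07). Cldn3 had 485 to 527 CPM in EtOH organoids, against 41.4 to 113 CPM in EtOH tissue, a log2 fold change of 2.14 ± 0.33 (adjusted p by edgeR = 6.107e-06). In controls 439 to 562 CPM in organoids stood against 36.4 to 101 CPM in tissue (2.74 ± 0.39, adjusted p by edgeR = 1.995e-06). Neither gene had overlapping groups.

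Cldn2 had 156 to 224 CPM in EtOH jejunum organoids, against 30.5 to 83.3 CPM in EtOH jejunum tissue, a log2 fold change of 1.29 ± 0.41 (adjusted p by edgeR = 0.009072). In controls 176 to 258 CPM in organoids stood against 21.9 to 67.5 CPM in tissue (1.68 ± 0.47, adjusted p by edgeR = 0.003944). Cldn7 fell by 1.32 ± 0.23 on the log2 scale in EtOH and by 1.52 ± 0.25 in control jejunum organoids relative to tissue (adjusted p by edgeR = 3.172e-05 and 1.143e-05). These 4 of 8 claudins, 2 higher and 2 lower, were called in both treatments, in all 8 alternatives and without any 1 library. Of all genes 53.5% were called in EtOH jejunum (22.7% higher and 30.8% lower) and 51.8% in control jejunum (24.2% higher and 27.6% lower). Groups were apart for 4 of 8 claudins in EtOH and 5 of 8 in control jejunum, against 54.2% and 53.7% of all genes. In control jejunum the split was 3 higher and 2 lower with library size alone or relative to the epithelial markers. The adjusted p of Cldn12, Cldn4, Cldn8 and Cldn23 ran from 0.6123 to 1 in EtOH and from 0.07422 to 0.6115 in control jejunum. Of the 14 jejunum enterocyte markers, 11 were called lower in control organoids too. Smooth muscle, matrix and endothelial markers were at or near 0 in jejunum organoids (at most 17.3 CPM summed for any of the 3 lists). Rn45s took 21.1% to 30.2% of all counts in EtOH and 19.7% to 23.4% in control jejunum organoids, below its share in jejunum tissue. The part of these values in the claudin result was not tested.

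In the colon Cldn4 was higher and Cldn15 lower in organoids than in tissue. Cldn4 had 1742 and 1752 CPM in EtOH colon organoids, against 13.5 to 77.9 CPM in EtOH colon tissue, a log2 fold change of 5.34 ± 0.74 (adjusted p by edgeR = 1.432e-05). In controls 859 and 1313 CPM in organoids stood against 54.8 to 169.7 CPM in tissue (3.07 ± 0.69, adjusted p by edgeR = 0.001265). Cldn15 had log2 fold changes of -2.90 ± 0.34 in EtOH and -7.25 ± 0.48 in control colon (adjusted p by edgeR = 7.494e-07 and 6.653e-11). The organoid libraries (47.6 to 63.3 CPM in EtOH and 1.47 to 6.11 CPM in controls) lay below all tissue libraries (326 to 536 CPM in EtOH and 289 to 465 CPM in controls). Cldn8, the colon barrier claudin, was lower in organoids in EtOH (2.11 and 0 CPM against 35.3 to 111 CPM, -5.53 ± 1.01, adjusted p by edgeR = 0.000176). It was also lower in control colon organoids (9.822 and 10.999 CPM against 28.5 to 47.5 CPM, -2.12 ± 0.79, adjusted p by edgeR = 0.0303).

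Cldn7 and Cldn3 were called higher in EtOH colon organoids than in tissue, at log2 fold changes of 2.63 ± 0.27 and 1.33 ± 0.38 (adjusted p by edgeR = 9.743e-08 and 0.008281). In control colon neither was called (adjusted p by edgeR = 0.7047 and 0.4177), and the difference between the treatments was not tested. Cldn12 was lower in organoids in both (-1.62 ± 0.49 in EtOH and -1.72 ± 0.50 in control colon, adjusted p by edgeR = 0.01243 and 0.006855). Cldn23 was called lower in control colon (-4.00 ± 0.72, adjusted p by edgeR = 8.11e-05) and Cldn2 in EtOH colon (-1.49 ± 0.52, adjusted p by edgeR = 0.0302, with overlapping groups). That made 7 of 8 claudins called in EtOH colon, against 33.6% of all genes. Of these 3 were higher and 4 lower, where 14.9% of all genes were higher and 18.7% lower, and relative to the epithelial markers 2 were higher and 5 lower. In control colon 5 of 8 were called, against 45.1% of all genes, 1 higher and 4 lower, where 16.5% of all genes were higher and 28.6% lower. Groups were apart for 7 of 8 claudins in EtOH and 5 of 8 in control colon, against 51.9% and 50.3% of all genes.

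Several of these calls turned on single libraries. Without EtOH colon organoid library 2, Cldn2 (-0.83), Cldn12 (-1.42) and Cldn3 (0.93) were no longer called, which left 4 calls in EtOH colon. Cldn2 was also lost without EtOH colon tissue library 3 (-1.11) or 4 (-1.42). Without EtOH colon organoid library 1, Cldn2 was -2.87 and Cldn8 -10.86, a value that measures no fold since the other library had no count. In control colon Cldn8 was lost without control colon organoid library 1 or 2 and without control colon tissue library 2 (-2.18, -2.11 and -1.96). Cldn12 was -10.64 and Cldn23 -11.00 without control colon organoid library 1, again with no count left, and Cldn12 was -0.90 without library 2. The calls of Cldn15 in both treatments, and of Cldn4, Cldn7 and Cldn8 in EtOH colon, held in all 8 alternatives and without any 1 library.

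**Figure D4:**
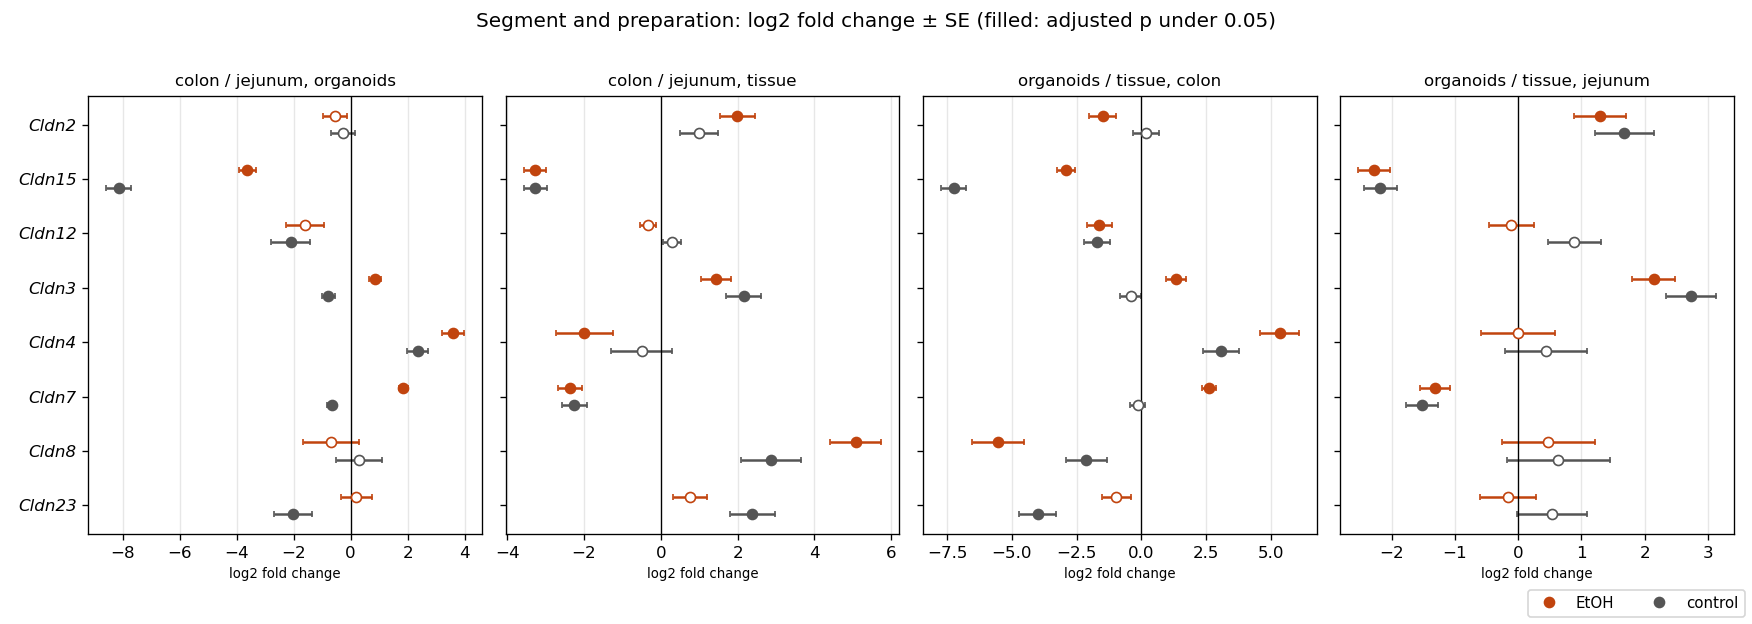
Log2 fold change (horizontal axis, points, with the SE as bars) of colon over jejunum in organoids and in tissue, and of organoids over tissue in colon and in jejunum, for EtOH (orange) and control (grey) mice, filled where the adjusted p by edgeR was under 0.05; each panel has its own horizontal scale. For Cldn15 the EtOH and control points lie apart in colon over jejunum organoids, at -3.63 and -8.14, and close together in jejunum organoids over tissue, at -2.28 and -2.18.

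The difference between these segment effects was tested in control mice as colon over jejunum in organoids minus colon over jejunum in tissue. It was called for 7 of 8 claudins, against 40.5% of all genes (14.9% higher and 25.6% lower). It was higher for Cldn4 (log2 difference 2.64 ± 0.94) and Cldn7 (1.38 ± 0.37), and lower for Cldn15 (-5.07 ± 0.53), Cldn12 (-2.61 ± 0.65), Cldn3 (-3.15 ± 0.57), Cldn8 (-2.75 ± 1.12) and Cldn23 (-4.54 ± 0.89). Cldn3 had the opposite order of segments in the 2 preparations. Control colon organoids had 402 and 329 CPM, against 439 to 562 CPM in jejunum organoids. Control colon tissue had 289 to 463 CPM, against 36.4 to 101 CPM in jejunum tissue. The calls of Cldn3 and Cldn12 held in all 7 alternatives run. Cldn4 (adjusted p by edgeR = 0.02939) held in 3 of 7 and Cldn8 (adjusted p by edgeR = 0.04978) in 1 of 7. They were lost without 5 and 9 of the 13 control libraries, with values of 1.91 to 2.80 and -2.84 to -2.14. For Cldn4 these were library 1 of jejunum tissue, library 1 of colon tissue, library 3 of jejunum organoids and both of colon organoids. For Cldn8 they were both of colon organoids, libraries 2 and 4 of jejunum organoids, libraries 1, 2 and 4 of colon tissue, and libraries 1 and 3 of jejunum tissue. Without control colon organoid library 1, Cldn12 was -11.54 and Cldn23 -11.57, with no count left in colon organoids. Relative to the epithelial markers 0 claudins were higher and 6 lower, with the median of all genes moved by -0.661.

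Ordered by mean level, Cldn15 was highest in jejunum tissue (2748 CPM in EtOH and 2726 CPM in control libraries). Jejunum organoids (683 and 706 CPM) and colon tissue (426 and 405 CPM) followed. EtOH colon organoids (55.4 CPM) and control colon organoids (3.79 CPM) came last. EtOH and control overlapped at each of the first 3 levels, and no libraries overlapped between one level and the next. Cldn7 was highest in EtOH colon organoids (2959 CPM), then in control and EtOH jejunum tissue (1934 and 1662 CPM), and the other 5 groups lay between 489 and 814 CPM. Cldn4 was highest in EtOH and control colon organoids (1747 and 1086 CPM), with the other 6 groups at 42.6 to 170.4 CPM and each neighbour overlapping. Cldn2 had overlapping neighbours throughout its order, from 349 CPM in EtOH colon tissue to 51.7 CPM in control jejunum tissue. Cldn8 and Cldn23 were highest in colon tissue, at 66.3 and 39.9 CPM in EtOH and 38.4 and 69.6 CPM in control libraries, and at most 20.2 CPM on average elsewhere.

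Cldn1, a barrier claudin of the skin and of other epithelia, was detected in 9 libraries, 8 of them colon or jejunum tissue. Its highest level was 2.34 CPM in an EtOH colon tissue library, and 4 groups had no count of it. A floor of 3 counts over the group allows up to 0.188 CPM in EtOH jejunum organoids, 0.162 CPM in control jejunum organoids, 1.05 CPM in control colon organoids and 0.840 CPM in control jejunum tissue. Floors cover counting error only, as reads without molecular identifiers are not independent molecules.

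The table held 25 claudin entries, and of the other 16, 7 reached a mean of 1 CPM in a group. The entry Cldn25, whose symbol RefSeq also lists as a synonym of other genes, so that its identity is uncertain, had means of 36.9 to 85.5 CPM. Cldn5, the endothelial claudin, was found in tissue only, with means of 3.06 to 8.17 CPM there and no count in any organoid library. Cldn6 and Cldn11 had 15.5 ± 18.8 and 11.9 ± 12.6 CPM in EtOH colon organoids, and 2.44 ± 3.46 and 3.19 ± 4.51 CPM in control colon organoids (SD, n = 2 each). Cldn14 had a mean of 14.1 CPM in control colon organoids, from 1 of the 2 libraries, and at most 4.02 CPM elsewhere, Cldn9 at most 1.47 CPM and Cldn10 at most 1.51 CPM.

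Claudins bind scaffold proteins such as those of the Tjp family and share the junction with occludin, the Jam adhesion molecules and the polarity complexes. Of 29 such partners in the table, 26 were tested between EtOH and control colon organoids. Of these 2 were called higher and 1 lower, beside 12.4% and 4.74% of all genes. The fit of the colon organoid libraries alone and limma-voom with a spread per group called no gene there. Ocln, which encodes occludin, was called higher (107 CPM in EtOH and 76.3 CPM in control libraries on average, log2 fold change 0.76 ± 0.24, adjusted p by edgeR = 0.0481). Ildr2, a component of tricellular junctions, was called higher too, with 9.48 CPM on average in EtOH and no count in control libraries. Prkci, a kinase of the Par polarity complex, was called lower (66.1 CPM in EtOH and 161 CPM in control libraries, -0.99 ± 0.30, adjusted p by edgeR = 0.0432). The median log2 difference of the 26 partners was 0.186, beside 0.147 over all genes, and no partner was called between EtOH and control in the other 3 settings.

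Between segments Cgnl1, the scaffold paracingulin, was higher in colon in all 4 comparisons. It had 304 CPM in EtOH colon and 2.91 CPM in EtOH jejunum organoids (log2 fold change 6.61 ± 0.42), and 56.4 CPM in EtOH colon and 3.83 CPM in EtOH jejunum tissue (3.31 ± 0.51). Tjp3, a Tjp scaffold, was lower in colon organoids (45.1 CPM in EtOH colon and 152 CPM in EtOH jejunum organoids, -1.78 ± 0.20). In tissue Ildr1, of tricellular junctions, was higher in colon (119 CPM in EtOH colon and 1.21 CPM in EtOH jejunum tissue, 5.89 ± 0.55) and the scaffold Magi3 lower (-1.86 ± 0.26). The partners called higher and lower in colon numbered 13 and 2 of 26 in EtOH organoids, beside 26.2% and 19.2% of all genes. In control organoids they numbered 8 and 2 of 26, beside 23.8% and 25.6%. In EtOH tissue they were 7 and 9 of 28, beside 24.8% and 23.6% of all genes, and in control tissue 5 and 7 of 28, beside 23% and 19.2%. Between preparations 13 of 29 were higher and 6 lower in EtOH colon organoids than in tissue, beside 14.9% and 18.7% of all genes. In control colon 8 were higher and 9 lower, beside 16.5% and 28.6%. In EtOH jejunum 5 were higher and 11 lower, beside 22.7% and 30.8%, and in control jejunum 4 and 10, beside 24.2% and 27.6%. Jam2 and Jam3 were among those lower in colon organoids, at 0.527 and 1.23 CPM in EtOH organoids, against 20.3 and 18.6 CPM in EtOH tissue. Control colon organoids had no count of either, against 23.3 and 20.7 CPM in control tissue. Smooth muscle markers summed to 12.3 to 32.7 CPM in EtOH colon organoids and 3562 to 20893 CPM in EtOH colon tissue. In control colon they were 0.982 to 70.9 and 3615 to 15444 CPM. Endothelial markers summed to 26.7 to 29.0 and 64.2 to 237 CPM in EtOH colon, and 0 to 33.9 and 106 to 244 CPM in control colon. The part of either list in the claudin and partner values was not tested.

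As a description, the genes outside the family whose log2(CPM + 1) was most like that of each claudin over the 27 libraries, among 9527 genes with a mean of at least 10 CPM, were picked by Pearson's r. For Cldn15 they were Ifi27l2b (0.977), Akap7 (0.962) and Ears2 (0.960), for Cldn3 Lgals3bp (0.952), Zdhhc20 (0.932) and Aup1 (0.929), and for Cldn4 Cdkn1a (0.916), Sprr1a (0.872) and Arhgef5 (0.862). Cldn7 was most like Gna11 (0.912), Blmh (0.901) and Fam108c (0.893), Cldn8 like Arhgef28 (0.919), Txndc16 (0.876) and Nov (0.858), and Cldn23 like Phldb1 (0.913), Dym (0.900) and Ndufa1 (0.892). Cldn12 had Mrps24 (0.964), Pmpcb (0.963) and Ippk (0.963), and Cldn2 had lower maxima, with Rfc2 (0.849), Pigyl (0.839) and Nedd9 (0.839). The lowest maxima were those of Cldn1, which had few counts, with Lypd8 (0.734), Sstr1 (0.724) and Tmem35 (0.722). The libraries share segment, preparation and depth, so the 27 values of a gene are not independent. Among the claudins themselves the highest r was 0.671 (Cldn12 and Cldn23) and the lowest -0.730 (Cldn7 and Cldn8).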

How the data were processed

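RNA was measured by 3′ tag sequencing in 27 libraries, and the authors deposited a table of raw counts, whole numbers for 23420 gene symbols. The submitters' processing notes name the mm10 build and the tools HTSeq, BWA, Trimmomatic 0.32, edgeR and limma. No source used here gives their settings or says whether strand was used. A second deposited table, of normalized values, was not used.

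Rn45s was left out, and CPM were computed from the remaining counts without further scaling. EdgeR 4.0.16 (R 4.3.3) was run on the deposited counts with TMM factors, filterByExpr by group and the robust quasi-likelihood fit, with two-sided tests and Benjamini-Hochberg adjustment over all genes tested (13170 in organoids, 13405 in tissue, 15034 in all libraries). Fitted fold changes carry the TMM factors, so they differ from ratios of CPM. The SE printed with an edgeR log2 fold change was calculated back from the test, as its size divided by the square root of F. Where a group has few or no counts, that SE is not a measure of the uncertainty of the fold change. The libraries of a group carry separate donor numbers but nothing more is stated of the mice, so p-values measure a spread between libraries. Each fit estimated that spread from all its groups together, not from the compared groups alone. For colon organoids it therefore drew also on jejunum organoid replicates, which were closer (Spearman rho 0.969 to 0.973, against 0.745 in control and 0.881 in EtOH colon organoids). None of the 35 replicate pairs agreed within sampling noise (chi-square per degree of freedom 2.94 to 88.8). The 12 organoid libraries were fitted together, the 15 tissue libraries together, and all 27 for organoids against tissue. Groups follow the sample titles.

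The claudins, marker lists and partner list were chosen with earlier results of these data known. Every claudin but Cldn1 was tested in every comparison, though not every value is printed. Other claudins were named from a mean of 1 CPM, partners by the 2 largest called fold changes in each direction, of which some are printed, and like genes by the 3 highest r. Alternatives were DESeq2 1.42.0, library size alone, Rn45s kept, no filter, limma-voom (limma 3.58.1) with a spread per group, the donor number as a block, only the compared groups fitted, levels relative to 12 epithelial genes, and each library left out. The fit was tested on simulated data with the same spread for every gene and library. That simulation did not hold the unequal spread of colon and jejunum organoids, so it cannot speak to the colon organoid calls.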

Additional observations from a re-analysis of the deposited data

Results flagged for a closer look

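Single libraries stood apart from the rest of their group for 6 of 43 values tested (claudins in groups of 4 libraries). Chance flags about 1 in 20 where values are normally spread, which low counts are not. Cldn2 was high in EtOH jejunum organoid library 1 (224.3 CPM, the nearest library at 163.8 CPM), and Cldn12 in EtOH jejunum organoid library 2 (71.72 CPM, nearest 57.69 CPM). Cldn12 was low in control colon tissue library 2 (37.6 CPM, nearest 59.07 CPM). Cldn3 was low in EtOH jejunum tissue library 1 (41.43 CPM, nearest 107.9 CPM) and in control colon tissue library 1 (289.5 CPM, nearest 449.3 CPM). Per 1000 counts of the epithelial markers, Cldn3 was 56.8 to 58.7 over all control colon tissue libraries, so that gap was gone. Control colon tissue library 1 also had the most smooth muscle marker RNA of its group (15444 CPM). In EtOH jejunum tissue library 1 Cldn3 stayed low on that measure (5.98, nearest 13.4). Cldn1 was found in EtOH jejunum tissue library 4 (0.9202 CPM, 7 counts) and in no other library of that group. Where all other libraries are at 0, any count is flagged, so this flag carries no weight. Library 4 was also the deepest of that group (7606668 counts outside Rn45s).

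The effect of EtOH on log2 levels differed between colon and jejunum organoids by 4.516 for Cldn15, 1.656 for Cldn3 and 2.513 for Cldn7, by the edgeR test of the difference itself. The effect of segment differed between organoids and tissue in control mice by -5.071 for Cldn15, -2.612 for Cldn12, -3.145 for Cldn3, 2.636 for Cldn4, 1.376 for Cldn7, -2.754 for Cldn8 and -4.538 for Cldn23. All of these differences hold a contrast with colon organoids, which have 2 libraries an arm.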

How the results depend on the processing

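Between EtOH and control, 3 claudins were called in colon organoids in the main analysis, 0 with limma-voom with a spread per group and 0 with only the 2 groups fitted, and 3 to 5 without 1 library. Of all genes 17.1% were called in the main analysis, 0% in either of those fits, and 1495 to 5881 genes without 1 library. For the difference of that effect between colon and jejunum organoids the main count was 3, with 0 by limma-voom and 3 to 5 without 1 library: without control colon organoid library 1, Cldn12 (9.33) and Cldn23 (9.07) were added, without library 2 Cldn23 (1.47), without EtOH colon organoid library 1 Cldn2 (-1.63) and without control jejunum organoid library 3 Cldn4 (1.52). There 9.64% of all genes were called in the main analysis, 0% by limma-voom and 717 to 4843 genes without 1 library. Limma-voom called 1 claudin between control colon and jejunum organoids (main 6), 1 between control colon organoids and tissue (main 5) and 2 for the difference of segment effects (main 7). Of all genes it called 7.71%, 3.25% and 15.6% in these comparisons, in that order (main 49.4%, 45.1% and 40.5%). Between EtOH colon organoids and tissue 4 to 7 claudins were called without 1 library (main 7), beside 3119 to 4620 of all genes (main 5046). The cause was not tested. With only the groups fitted that a comparison holds, no value exists for the 3 differences of effects.

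Donor numbers recur under both treatments. Deviations of log2(CPM + 1) from the group mean were correlated between same-numbered libraries. These correlations ran from -0.138 to 0.558, with no comparison in which every pair was over 0.1, so the numbers were not taken as pairs. Between EtOH and control the same number matched best for 3 of 4 jejunum organoid, 2 of 4 colon tissue and 3 of 3 jejunum tissue pairs. Between organoids and tissue it did so for 1 of 4 EtOH jejunum pairs and for 0 in the other comparisons. With the replicate block, 2 claudins were called between control colon and jejunum organoids, for which the share of all genes is not given. Cldn4 between EtOH and control jejunum tissue was then at -0.333.

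None of the values that changed sign was called in that alternative. Relative to the epithelial markers, Cldn12 between EtOH and control colon organoids was -0.351 (main 0.32), and Cldn3 between EtOH colon and jejunum organoids -0.01288. In jejunum tissue Cldn15 (main 0.05) was -0.05133 with DESeq2 and -0.02963 with only the 2 groups fitted, and Cldn4 (main 0.15) was -0.1442 with limma-voom. Without 1 library, the EtOH effect ran from -0.489 to 9.143 for Cldn12 and from -1.847 to 0.1849 for Cldn2 in colon organoids, from -0.147 to 0.03367 for Cldn15, from -0.03356 to 0.2092 for Cldn23 and from -0.03674 to 0.06152 for Cldn7 in jejunum organoids, from -0.1043 to 0.1386 for Cldn15 and from -0.5672 to 0.05492 for Cldn3 in colon tissue, and from -0.2276 to 0.2158 for Cldn15, from -0.1936 to 0.4164 for Cldn2 and from -0.4406 to 0.9009 for Cldn4 in jejunum tissue. Outside the EtOH comparisons, 15 of 37 uncalled values changed sign and 12 were called in at least 1 alternative. Depth limits Cldn1, Cldn8 and Cldn23 most in control colon organoids and control jejunum tissue. It also limits Cldn15 in control colon organoids, where 8 counts in all were found. The Cldn15 fold changes that involve that group rest on those counts.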
